A study of Homo sapiens with 12 samples.

Results

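The genes of sterol and fatty acid synthesis that the sterol regulatory element-binding proteins (SREBPs) drive were followed in MIAPaCa2, a human pancreatic cancer cell line, and in cells of that line that survived sodium oxamate, an inhibitor of lactate dehydrogenase A. The 33 members were chosen by gene symbol from a list of pathway genes, and all 33 are among the 26475 symbols of the count table. RNA was sequenced from parental cells given vehicle, parental cells given oxamate, oxamate-resistant cells given vehicle and oxamate-resistant cells given oxamate, with 3 libraries in each of the 4 groups. The resistant cells were a surviving population taken after 10 mM sodium oxamate for 4 weeks, not single clones, and all groups grew in DMEM with fetal bovine serum, which brings its own sterols and fatty acids. The labels call the treatments untreated and LDHA inhibitor, and the time for which the RNA samples were exposed to oxamate is not given in the sources used here. No label says that the libraries of a group came from separate cultures, so p-values measure the spread between these libraries, which may be technical.

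Cells make cholesterol from acetyl-CoA through mevalonate, isoprenoid diphosphates and squalene, and they make fatty acids from the same acetyl-CoA through malonyl-CoA. The SREBPs, made from SREBF1 and SREBF2, are membrane-bound in the endoplasmic reticulum until SCAP escorts them to the Golgi, where they are cut and set free to enter the nucleus. INSIG1 holds SCAP back when sterols are plentiful and is itself a target of the SREBPs, so its RNA is a common readout of the pathway. SREBF2 is best known for the sterol enzymes and SREBF1 for the fatty acid enzymes, with much overlap. Sequencing of RNA measures neither the cutting of the SREBPs nor lipid levels.

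Differences are log2 fold changes ± their standard errors (SE), levels are in CPM, the counts of a gene as a share of its library, scaled by TMM between libraries, and a gene was called when edgeR's quasi-likelihood test gave a Benjamini-Hochberg adjusted p under 0.05 over the 14582 genes tested. The libraries held 46698729 to 114222169 expected counts each, and every parental library was larger than every resistant one. LDHA, the target of the inhibitor, was at 1074 CPM in parental vehicle, 1647 in parental oxamate, 960.0 in resistant vehicle and 1213 in resistant oxamate cells on average. The keratins KRT8, KRT18 and KRT19 and the mesenchymal filament gene VIM were abundant in every library, whereas the epithelial marker EPCAM stayed at or below 0.0503 CPM. Of 11 markers of leukocytes, endothelium, fibroblasts, acinar and islet cells, 9 were too low to be tested, and their sum was 25.5 to 26.1 CPM in parental vehicle and 17.6 to 18.0 CPM in resistant oxamate cells, nearly all of it LYZ, with PTPRC, CD3E, DCN, PRSS1, INS and GCG at or near 0. The 4 nuclear-retained RNAs MALAT1, NEAT1, KCNQ1OT1 and MIAT together made up 321 to 357 CPM in parental vehicle, 544 to 1187 in parental oxamate, 534 to 1112 in resistant vehicle and 1080 to 1407 in resistant oxamate libraries. By edgeR, all 4 were called higher with oxamate in parental and 1 in resistant cells, beside 28.3% and 9.01% of all genes tested. The 4 log2 fold changes in resistant cells ran from 0.68 to 0.96, and the difference of the responses was called for 0 of 4. Between the lines 3 were called higher in resistant cells under vehicle and 3 under oxamate, beside 38.4% and 40.6% of all genes. NEAT1 was at 1.38 ± 0.27 (log2 fold change ± SE) under vehicle and MIAT at 1.11 ± 0.31 under oxamate. All 4 tested epithelial or filament markers were lower in resistant cells under both treatments (KRT8 by -1.11 ± 0.028 and -1.04 ± 0.028). With oxamate 4 of these markers were higher in parental and 1 in resistant cells, though 0 and 1 were with library size alone. Lower in resistant cells were 37.3% of all genes tested under vehicle and 39.7% under oxamate. Of the 11 markers of other cell types only LYZ and VWF were tested, and both were lower in resistant cells under both treatments, and LYZ was lower with oxamate in parental cells (-0.09 ± 0.032). The part of these markers in the results was not tested. Replicate 3 of parental oxamate and replicate 3 of resistant vehicle stood above the other libraries of their groups on the sum of the nuclear-retained RNAs. Scaling by library size alone moved the median of all genes by 0.22 (log2) in the comparison of the lines under vehicle and by 0.32 under oxamate, against -0.07 for oxamate in parental and 0.03 in resistant cells. Changes between the lines are therefore given relative to the median gene, with the value under library size alone where the direction of a called member turns.

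The members differed widely in level, here compared per kilobase of exon from the GENCODE 29 annotation. In parental vehicle cells SCD, which puts the double bond into stearoyl-CoA, was at 296 CPM per kilobase, followed by ACLY, which makes cytosolic acetyl-CoA from citrate, at 87.9 and FASN, the fatty acid synthase, at 76.4. Among the sterol enzymes, FDPS was at 71.5, EBP at 53.9 and CYP51A1 at 50.4 CPM per kilobase, while SC5D was at 4.51 and GGPS1 at 6.12. INSIG1 was the highest regulator at 53.8 CPM per kilobase, above SREBF2 at 35.0, SREBF1 at 23.4 and SCAP at 18.9. The elongase ELOVL6 was the lowest member tested, at 0.418 CPM per kilobase. STARD4, a carrier of cholesterol between membranes, never had more than 1 count in a library, below the floor of 3 counts, which equals 0.0283 to 0.0581 CPM, and it was the only member not tested.

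The stretches of 250 bases before the transcription start sites were read for 29 of the 33 members from the RefSeq promoter table (GRCh38.p14), which has no entry for ACAT2, FDFT1, SQLE and FASN, and a gene with several start sites counted as holding a motif if any of its windows did. SREBPs bind sterol regulatory elements and are known to act with NF-Y, which binds CCAAT, and with SP1, which binds GC boxes. Both strands were searched, and the overlaps found were of 2 matches of CCAAT with each other, in 1 window of IDI1 and 1 of NSDHL. The letters TCACNCCAC were in 1 of 29 members (3.45%), SREBF2, in 1.19% of the 10575 tested genes with an entry and in 1.09% of all 27305 genes of the table. CCAAT was in 21 of 29 members (72.4%), in 41% of the tested and 37% of all genes. GGGCGG was in 28 of 29 (96.6%), against 73.9% and 46.2%, and CACGTG, the E-box, in 3 of 29 (10.3%), against 10.9% and 7.73%. By role, CCAAT was in 6 of 7 mevalonate enzymes, 8 of 9 enzymes from squalene to cholesterol, 4 of 8 fatty acid and glycerolipid enzymes and 3 of 5 regulators. The members without it were PMVK, CYP51A1, ELOVL6, FADS1, FADS2, LPIN1, SREBF1 and SCAP.

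SREBF2 was the one member read with a match to TCACNCCAC. INSIG1, MSMO1 and EBP had the largest decreases between the lines under oxamate, and ELOVL6 had the largest increase there and no CCAAT. The 5 windows printed belong to these members. They are SREBF2 (chr22:41832855-41833104, plus strand), INSIG1 (chr7:155297628-155297877, plus strand), MSMO1 (chr4:165327419-165327668, plus strand), EBP (chrX:48521558-48521807, plus strand) and ELOVL6 (chr4:110198616-110198865, minus strand), each written 5′ to 3′ along the gene, and capitals mark TCACNCCAC and CCAAT on either strand, the latter reading ATTGG on the reverse strand.
SREBF2: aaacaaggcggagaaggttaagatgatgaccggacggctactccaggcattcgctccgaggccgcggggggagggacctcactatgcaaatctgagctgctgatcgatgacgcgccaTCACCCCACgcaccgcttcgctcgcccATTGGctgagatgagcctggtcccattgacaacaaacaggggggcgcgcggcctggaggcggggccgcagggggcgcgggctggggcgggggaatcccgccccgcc
INSIG1: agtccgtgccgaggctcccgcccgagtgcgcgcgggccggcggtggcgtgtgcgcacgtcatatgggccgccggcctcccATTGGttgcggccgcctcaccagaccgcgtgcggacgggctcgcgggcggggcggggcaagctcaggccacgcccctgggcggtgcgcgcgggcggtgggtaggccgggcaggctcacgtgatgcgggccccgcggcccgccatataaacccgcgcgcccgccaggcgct
MSMO1: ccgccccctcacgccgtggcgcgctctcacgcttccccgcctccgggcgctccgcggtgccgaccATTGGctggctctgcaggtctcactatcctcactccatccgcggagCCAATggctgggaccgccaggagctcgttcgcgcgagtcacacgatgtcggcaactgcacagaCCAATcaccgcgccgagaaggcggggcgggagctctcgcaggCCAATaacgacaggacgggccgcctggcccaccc
EBP: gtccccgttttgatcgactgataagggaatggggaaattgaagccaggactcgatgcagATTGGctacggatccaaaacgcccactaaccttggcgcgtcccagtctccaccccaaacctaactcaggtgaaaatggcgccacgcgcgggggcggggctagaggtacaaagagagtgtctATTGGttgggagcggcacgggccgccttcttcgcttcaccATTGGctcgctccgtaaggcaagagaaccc
ELOVL6: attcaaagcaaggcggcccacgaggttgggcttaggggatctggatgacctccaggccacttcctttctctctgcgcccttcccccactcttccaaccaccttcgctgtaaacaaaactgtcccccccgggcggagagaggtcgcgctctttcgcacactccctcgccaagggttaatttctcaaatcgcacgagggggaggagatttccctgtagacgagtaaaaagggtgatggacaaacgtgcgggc

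The capitals show 1 match to TCACNCCAC followed by 1 reversed CCAAT in SREBF2. INSIG1 has 1 reversed CCAAT, MSMO1 4 copies and EBP 3, whereas the ELOVL6 window has none. A match to these letters is a description of the sequence and was not tested as a binding site. Sterol elements spelled otherwise were not searched for, so a window without a match was not shown to lack one.

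**Figure D1:**
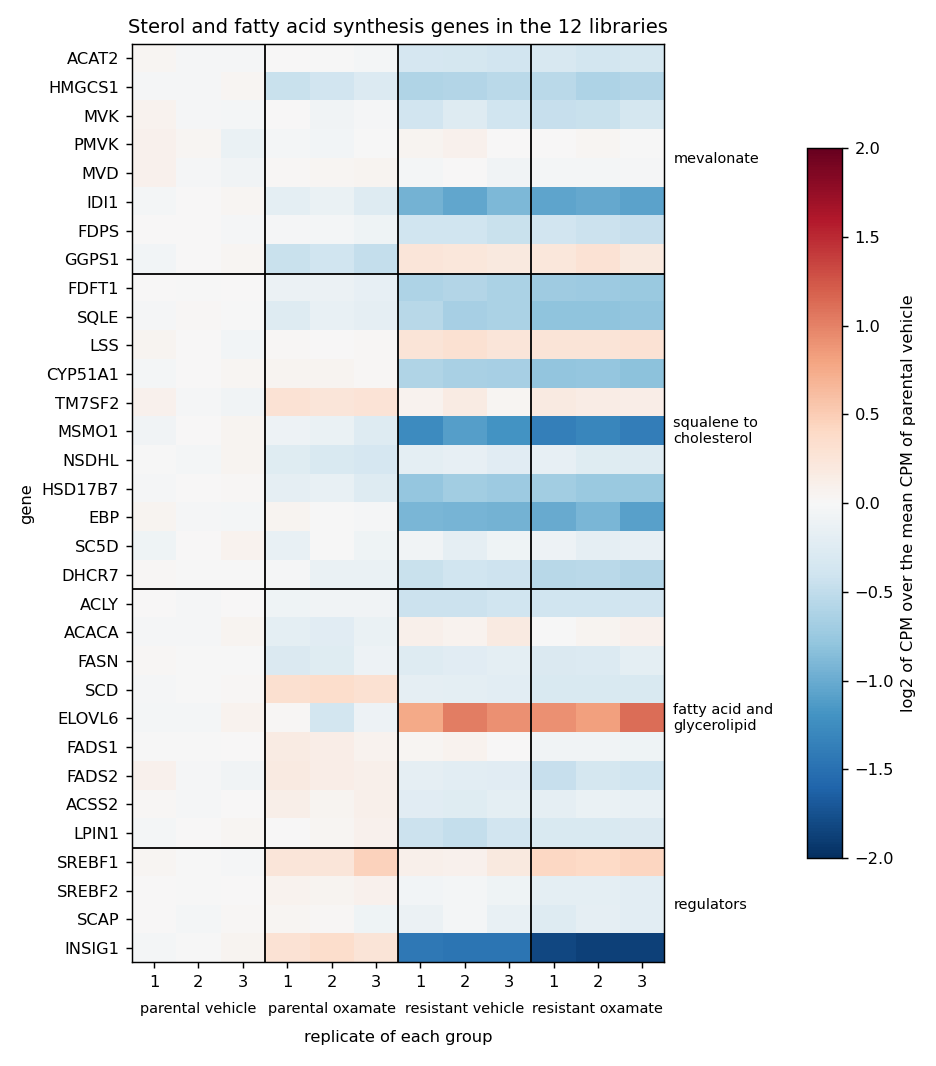
Level of the 32 tested members in each of the 12 libraries, as log2 of CPM over the mean CPM of parental vehicle, with genes in rows by role and replicates 1 to 3 of each group in columns. INSIG1, MSMO1, EBP and IDI1 are blue in all 6 resistant libraries and ELOVL6 is red there, while SCD, INSIG1 and SREBF1 are pale red in the 3 parental oxamate libraries.

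Resistant cells were compared with parental cells under vehicle to find what differed without the drug at hand. Most members were lower in the resistant cells: of 32 tested, 22 were lower and 6 higher, where 37.3% of all genes tested were lower and 38.4% higher. The rule of the study asks for p below 0.05 without adjustment together with more than 1.5-fold change. The study used it on DESeq2 results and here it was used on those of edgeR, so these counts are not the study's own. By that rule in edgeR 8 members were lower and 1 higher. Of the 14582 genes tested 23.4% passed it, 896 of them lower and 2511 higher. The 19 sterol enzymes had a median log2 fold change of -0.42, the 9 fatty acid and glycerolipid enzymes -0.21 and the 4 tested regulators -0.08, against 0.03 for all genes tested. Under library size alone 15 members were lower and 11 higher, beside 19.0% and 58.6% of all genes, and 6 called members turned direction: NSDHL, SCD, FADS2, ACSS2, SREBF2 and SCAP.

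Under oxamate 22 of 32 members were lower and 4 higher in the resistant cells, beside 39.7% and 40.6% of all genes tested. By the rule of the study in edgeR 8 were lower and 2 higher. Of the 14582 genes tested 34.3% passed it, 1667 of them lower and 3340 higher. The medians were -0.37 for the sterol enzymes, -0.25 for the fatty acid and glycerolipid enzymes, -0.24 for the regulators and 0.01 for all genes tested. Of the 22 members lower under vehicle and the 22 lower under oxamate, 20 were lower under both, beside 32.2% of all genes, and 4 were higher under both out of 6 and 4, beside 32.0%. With library size alone 11 were lower and 14 higher, beside 19.3% and 62.6% of all genes, and HMGCS1, TM7SF2, ACLY, FADS1, ACSS2, SREBF2 and SCAP turned direction. Under both scalings and both treatments 9 members were lower (IDI1, FDFT1, SQLE, CYP51A1, MSMO1, HSD17B7, EBP, DHCR7 and INSIG1), beside 14.1% of all genes, and 4 were higher (GGPS1, LSS, ACACA and ELOVL6), beside 32.0%. Bulk RNA cannot tell fewer cells with a gene on from less of its RNA per cell. The nuclear-retained RNAs, the library totals and the scaling move with the line, and their part in these counts was not tested.

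**Figure D2:**
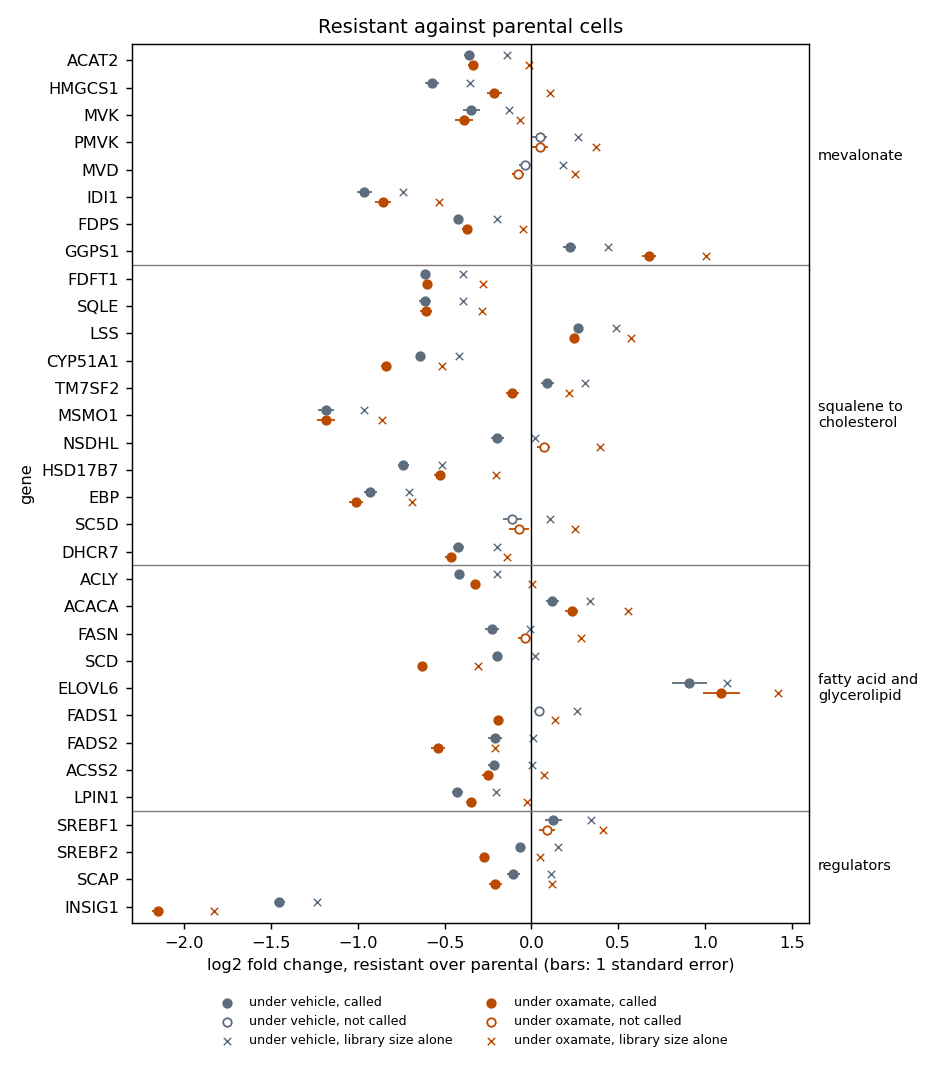
Log2 fold change of resistant over parental cells for the 32 tested members under vehicle (grey) and under oxamate (orange), with bars of 1 standard error; filled points were called, open points were not, and crosses give the value with library size alone. INSIG1 lies at -1.45 and -2.15 and ELOVL6 at 0.91 and 1.09, and the crosses of SREBF2, SCAP and ACSS2 lie on the other side of 0 from their points under both treatments.

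Among the regulators, INSIG1 had the largest difference. INSIG1 was at 160.5, 165 and 171 CPM in the parental vehicle libraries and at 61.6, 60.1 and 60.0 in the resistant vehicle ones. It was at 202, 212 and 198 CPM in parental oxamate and at 46.9, 45.5 and 45.5 in resistant oxamate libraries. All 6 resistant libraries lay far below all 6 parental ones, and the lines stood further apart under oxamate. The log2 fold change was -1.45 ± 0.031 (SE) under vehicle (edgeR adjusted p = 2.7e-15) and -2.15 ± 0.033 under oxamate (edgeR adjusted p = 3.9e-17), which is 2.73-fold and 4.44-fold lower.

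SREBF1 was at 108, 104 and 103 CPM in parental and 113, 111 and 120.1 CPM in resistant vehicle libraries. Every resistant library lay above every parental one, and the log2 fold change was 0.13 ± 0.047 (edgeR adjusted p = 0.024), a call that was lost without parental vehicle replicate 2 (adjusted p = 0.06), parental vehicle replicate 3 (adjusted p = 0.075) or resistant vehicle replicate 3 (adjusted p = 0.11). SREBF2 was at 198, 195 and 199.9 CPM in parental oxamate and 163, 164 and 163 CPM in resistant oxamate libraries. SREBF2 changed by -0.27 ± 0.022 on the log2 scale under oxamate (edgeR adjusted p = 8.0e-09) and by -0.06 ± 0.022 under vehicle, and with library size alone it was higher in both, at 0.05 and 0.15. SCAP, at 87.9, 87.8 and 81.0 CPM against 71.7, 76.2 and 74.2 under oxamate, changed by -0.21 ± 0.038 there and by -0.10 ± 0.037 under vehicle, where it was at 86.8, 83.8 and 87.2 CPM in parental and 79.0, 83.5 and 77.2 in resistant libraries, and it too turned with library size alone, to 0.12 and 0.11. The vehicle call of SCAP was lost in edgeR without parental vehicle replicate 1 (edgeR adjusted p = 0.051), resistant vehicle replicate 1 (adjusted p = 0.058) or resistant vehicle replicate 3 (adjusted p = 0.087). The direction of both genes relative to parental cells thus depended on the scaling, while that of INSIG1 did not.

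In the mevalonate pathway 5 of 8 enzymes were lower in resistant cells and 1 higher under vehicle, with the same counts under oxamate. Of all genes tested 37.3% were lower and 38.4% higher under vehicle, and 39.7% and 40.6% under oxamate. Counts by library size alone were 5 lower and 3 higher under vehicle, and 1 lower and 3 higher under oxamate. Beside these stood 19.0% lower and 58.6% higher of all genes under vehicle, and 19.3% and 62.6% under oxamate. IDI1, which isomerises isopentenyl diphosphate, was at 38.1, 39.6 and 40.3 CPM in parental and 20.3, 19.1 and 21.1 CPM in resistant vehicle libraries, and at 34.3, 36.0 and 32.8 and 18.9, 19.4 and 18.6 CPM under oxamate. The resistant libraries lay far below the parental ones, with a log2 fold change of -0.96 ± 0.043 under vehicle (edgeR adjusted p = 1.2e-11) and -0.86 ± 0.045 under oxamate (edgeR adjusted p = 3.8e-11). HMGCS1, the synthase at the head of the pathway, was at 36.3, 36.5 and 38.1 CPM in parental and 24.4, 24.6 and 25.5 CPM in resistant vehicle libraries. Its log2 fold change was -0.57 ± 0.041 under vehicle (edgeR adjusted p = 3.3e-09) and -0.21 ± 0.043 under oxamate, where library size alone gave 0.11. FDPS, which makes farnesyl diphosphate, was at 119, 118 and 116 CPM in parental and 88.9, 88.9 and 86.2 CPM in resistant vehicle libraries, a change of -0.42 ± 0.026 (edgeR adjusted p = 7.1e-10), and under oxamate it changed by -0.37 ± 0.027, a call lost with library size alone (-0.05). For HMGCS1 and FDPS no resistant vehicle library reached a parental one. MVK, the mevalonate kinase, was at 20.2, 19.3 and 19.8 CPM in parental and 14.6, 14.8 and 15.9 CPM in resistant oxamate libraries, a change of -0.39 ± 0.05 (edgeR adjusted p = 2.6e-06) that was not called with library size alone (-0.06). ACAT2, the thiolase of the first step, changed by -0.36 ± 0.028 under vehicle and -0.34 ± 0.028 under oxamate, the latter not called with library size alone (-0.01), and it overlaps the gene TCP1 on the genome, from which unstranded reads cannot be told apart.

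GGPS1, which makes geranylgeranyl diphosphate for protein prenylation and so leaves the route to cholesterol, went the other way. It was at 13.9, 14.4 and 13.7 CPM in parental and 22.3, 23.2 and 21.8 CPM in resistant oxamate libraries, a log2 fold change of 0.68 ± 0.04 (edgeR adjusted p = 1.7e-10), against 0.22 ± 0.038 under vehicle. PMVK and MVD were not called in either comparison of the lines, although with library size alone both were called higher, PMVK at 0.27 and 0.37 and MVD at 0.18 and 0.25 under vehicle and oxamate. With TMM, PMVK, the next kinase, changed by 0.05 ± 0.045 under vehicle (95% interval -0.05 to 0.14), and the decarboxylase MVD by -0.04 ± 0.034 (95% interval -0.11 to 0.04), so that a difference of the size of that of IDI1 lay outside both intervals.

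From squalene to cholesterol, 8 of 11 enzymes were lower and 2 higher in resistant cells under vehicle, and 8 lower and 1 higher under oxamate. Of all genes tested 37.3% were lower and 38.4% higher under vehicle, and 39.7% and 40.6% under oxamate. Counts by library size alone were 7 lower and 2 higher, and 7 lower and 4 higher. Beside these stood 19.0% lower and 58.6% higher of all genes under vehicle, and 19.3% and 62.6% under oxamate. MSMO1, which oxidises the methyl groups of sterol intermediates, was at 51.0, 53.7 and 55.3 CPM in parental and 22.2, 24.8 and 23.3 CPM in resistant vehicle libraries. Under oxamate it was at 49.6, 48.8 and 44.3 and 20.6, 21.6 and 20.5 CPM. The log2 fold change was -1.18 ± 0.048 under vehicle (edgeR adjusted p = 4.1e-12) and -1.18 ± 0.05 under oxamate (edgeR adjusted p = 3.0e-12). The gap under oxamate differed from that under vehicle by 0.00 ± 0.069, with a 95% interval of -0.15 to 0.15. EBP, a sterol isomerase, was at 99.4, 93.9 and 93.5 CPM in parental and 51.0, 50.2 and 49.8 CPM in resistant vehicle libraries, and at 99.7, 94.9 and 94.2 and 47.7, 50.5 and 45.2 CPM under oxamate. Its log2 fold change was -0.93 ± 0.038 under vehicle (edgeR adjusted p = 4.0e-12) and -1.01 ± 0.039 under oxamate (edgeR adjusted p = 8.3e-13). No resistant library of either gene reached a parental one.

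HSD17B7, a keto-reductase of the sterol ring, was at 61.9, 63.1 and 63.9 CPM in parental and 36.7, 38.7 and 37.9 CPM in resistant vehicle libraries, a log2 fold change of -0.74 ± 0.031 (edgeR adjusted p = 7.0e-12). Its near copy HSD17B7P2, which could take some of its reads, was at 0.182 to 0.291 CPM on average in the 4 groups. CYP51A1, the lanosterol demethylase, was at 175, 175 and 172 CPM in parental and 97.8, 98.5 and 95.3 CPM in resistant oxamate libraries, a change of -0.84 ± 0.026 (edgeR adjusted p = 7.3e-14), and of -0.64 ± 0.026 under vehicle. The squalene synthase FDFT1 changed by -0.61 ± 0.023 under vehicle and -0.60 ± 0.024 under oxamate, and the squalene epoxidase SQLE by -0.61 ± 0.034 and -0.61 ± 0.036. The 95% interval of the difference between those gaps was -0.06 to 0.08 for FDFT1 and -0.10 to 0.11 for SQLE. DHCR7, the reductase of the last step, changed by -0.42 ± 0.03 and -0.47 ± 0.031. LSS, the lanosterol synthase that lies between SQLE and CYP51A1 in the pathway, was higher in resistant cells, by 0.27 ± 0.027 and 0.25 ± 0.027. NSDHL was lower under vehicle (-0.20 ± 0.037) but at 0.02 with library size alone, and it was not called under oxamate (0.07 ± 0.038), where library size alone called it higher (0.40). TM7SF2 was called higher under vehicle (0.09 ± 0.038, with overlapping libraries) and lower under oxamate (-0.11 ± 0.038, but 0.22 with library size alone). SC5D was not called in either, with 95% intervals of -0.22 to 0.00 and -0.19 to 0.05, but it lay above 0 with library size alone, at 0.11 under vehicle and, called, 0.25 under oxamate.

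Of the fatty acid and glycerolipid enzymes 6 of 9 were lower and 2 higher under vehicle, with the same counts under oxamate. Of all genes tested 37.3% were lower and 38.4% higher under vehicle, and 39.7% and 40.6% under oxamate. Counts by library size alone were 2 lower and 3 higher, and 2 lower and 4 higher. Beside these stood 19.0% lower and 58.6% higher of all genes under vehicle, and 19.3% and 62.6% under oxamate. ELOVL6, which extends palmitate, was at 2.69, 2.71 and 2.93 CPM in parental and 4.71, 5.61 and 5.24 CPM in resistant vehicle libraries, and at 2.81, 2.15 and 2.59 and 5.24, 4.88 and 6.01 CPM under oxamate. Though low, it stood well apart in resistant cells, with a log2 fold change of 0.91 ± 0.10 under vehicle (edgeR adjusted p = 5.7e-07) and 1.09 ± 0.11 under oxamate (edgeR adjusted p = 8.8e-08). ACLY was at 387, 380.3 and 387 CPM in parental and 287, 287 and 291 CPM in resistant vehicle libraries, a change of -0.42 ± 0.021 (edgeR adjusted p = 4.5e-11), and under oxamate of -0.32 ± 0.021, which library size alone brought to 0.00. LPIN1, a phosphatidate phosphatase of glycerolipid synthesis, was at 102, 105 and 108 CPM in parental and 78.5, 75.9 and 80.3 CPM in resistant vehicle libraries, a change of -0.43 ± 0.03 (edgeR adjusted p = 2.5e-09), and under oxamate it changed by -0.35 ± 0.03, a call lost with library size alone (-0.02). Both ACLY and LPIN1 lay lower in every resistant vehicle library than in any parental one. SCD was at 1975, 2020 and 1956 CPM in parental and 1279, 1279 and 1283 CPM in resistant oxamate libraries, a change of -0.63 ± 0.022 (edgeR adjusted p = 2.2e-13), against -0.20 ± 0.021 under vehicle, where it was at 1562, 1579 and 1613 and 1393, 1383 and 1374 CPM and library size alone gave 0.02. FADS2, a desaturase of polyunsaturated fatty acids, was at 40.7, 39.4 and 38.4 CPM in parental and 26.2, 28.3 and 27.2 CPM in resistant oxamate libraries, a change of -0.54 ± 0.042 (edgeR adjusted p = 4.9e-09). Under vehicle FADS2 was at 38.1, 35.4 and 34.4 and 31.6, 31.1 and 30.6 CPM and changed by -0.21 ± 0.04, or 0.01 with library size alone. The direction of SCD and FADS2 between the lines thus held under both scalings with oxamate and not with vehicle. ACACA, the acetyl-CoA carboxylase that commits carbon to fatty acids, was higher by 0.12 ± 0.036 and 0.23 ± 0.036. FASN changed by -0.23 ± 0.039 under vehicle and was not called under oxamate (-0.04 ± 0.039, 95% interval -0.12 to 0.05). With library size alone the vehicle call of FASN was lost (-0.01) and under oxamate FASN was called higher (0.29). ACSS2, which activates acetate, changed by -0.22 ± 0.03 and -0.25 ± 0.031 and turned with library size alone, to 0.00 and 0.07, and the desaturase FADS1 was not called under vehicle (0.04 ± 0.026, but 0.26 and called higher with library size alone) and was called under oxamate (-0.19 ± 0.026, but 0.13 with library size alone).

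Oxamate was compared with vehicle within each line to see how the members answered the drug. In parental cells the answer was mixed: 8 of 32 members rose and 12 fell, close to the 28.3% and 30.4% of all genes tested, and by edgeR 0 passed the rule of the study, which 9.88% of all genes did, although 20 had an unadjusted p under 0.05. Among the 19 sterol enzymes 1 rose and 9 fell, with a median log2 fold change of -0.08. Of the 9 fatty acid and glycerolipid enzymes 4 rose and 3 fell (median 0.05), and of the 4 tested regulators 3 rose (median 0.19). Library size alone gave 4 higher and 17 lower members, beside 19.6% and 40.6% of all genes, and brought SREBF2 to 0.00. The nuclear-retained RNAs moved with oxamate in these cells as well, and their part in these counts was not tested.

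Among the regulators in parental cells, SREBF1 was at 108, 104 and 103 CPM with vehicle and 125, 124 and 145 CPM with oxamate, of which replicate 3 was the highest. INSIG1 was at 160.5, 165 and 171 CPM with vehicle and 202, 212 and 198 CPM with oxamate, so that for both genes every oxamate library was above every vehicle library. The log2 fold change was 0.32 ± 0.047 for SREBF1 (edgeR adjusted p = 2.5e-05) and 0.30 ± 0.03 for INSIG1 (edgeR adjusted p = 3.8e-07). SREBF2 was at 188, 187 and 189 CPM with vehicle and 198, 195 and 199.9 CPM with oxamate, a change of 0.07 ± 0.022 (edgeR adjusted p = 0.0083) that was not called with library size alone. SCAP was not called (-0.01 ± 0.037). SCD was at 1562, 1579 and 1613 CPM with vehicle and 1975, 2020 and 1956 CPM with oxamate, a rise of 0.32 ± 0.021 (edgeR adjusted p = 5.3e-09), and FADS1, FADS2 and ACSS2 rose by 0.12 ± 0.026, 0.13 ± 0.039 and 0.09 ± 0.03. With library size alone the rise of SCD stayed called (0.25), while FADS1 (0.04), FADS2 (0.06) and ACSS2 (0.02) were not called. FASN and ACACA, the enzymes that build the chain, fell. FASN was at 665, 648 and 651 CPM with vehicle and 537, 553 and 607 CPM with oxamate, a change of -0.21 ± 0.039 (edgeR adjusted p = 2.3e-04), and ACACA at 159, 159 and 169 and 142, 139 and 148 CPM, a change of -0.18 ± 0.036 (edgeR adjusted p = 4.1e-04). In both FASN and ACACA the third oxamate library, which was high in nuclear-retained RNA, was nearest to the vehicle libraries. ACLY fell by 0.08 ± 0.021, and ELOVL6 (-0.13 ± 0.11) and LPIN1 (0.05 ± 0.029) were not called.

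Of the mevalonate enzymes in parental cells, GGPS1 was at 18.4, 19.1 and 19.5 CPM with vehicle and 13.9, 14.4 and 13.7 CPM with oxamate, and it changed by -0.44 ± 0.039 (edgeR adjusted p = 1.4e-07). HMGCS1 was at 36.3, 36.5 and 38.1 and 27.3, 28.3 and 30.5 CPM and changed by -0.36 ± 0.04 (edgeR adjusted p = 1.5e-06), and IDI1 changed by -0.19 ± 0.041 (edgeR adjusted p = 7.6e-04). The other 5 mevalonate enzymes were not called, with log2 fold changes between -0.05 and 0.04. Further down, NSDHL, a dehydrogenase that helps to remove the methyl groups, was at 31.5, 30.8 and 32.8 CPM with vehicle and 26.8, 25.7 and 25.2 CPM with oxamate and changed by -0.29 ± 0.037 (edgeR adjusted p = 5.8e-06). HSD17B7, which acts next to it, was at 61.9, 63.1 and 63.9 and 55.7, 56.6 and 52.8 CPM and changed by -0.19 ± 0.031 (edgeR adjusted p = 5.0e-05). SQLE, MSMO1, FDFT1 and DHCR7 fell, with log2 fold changes of -0.19 ± 0.033, -0.16 ± 0.045, -0.13 ± 0.023 and -0.10 ± 0.03. TM7SF2, a sterol reductase, was the one sterol enzyme that rose, from 73.8, 68.7 and 66.3 CPM to 84.9, 82.1 and 83.6 CPM, by 0.26 ± 0.037 (edgeR adjusted p = 2.0e-05). LSS, CYP51A1, EBP and SC5D were not called, between -0.08 and 0.04.

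**Figure D3:**
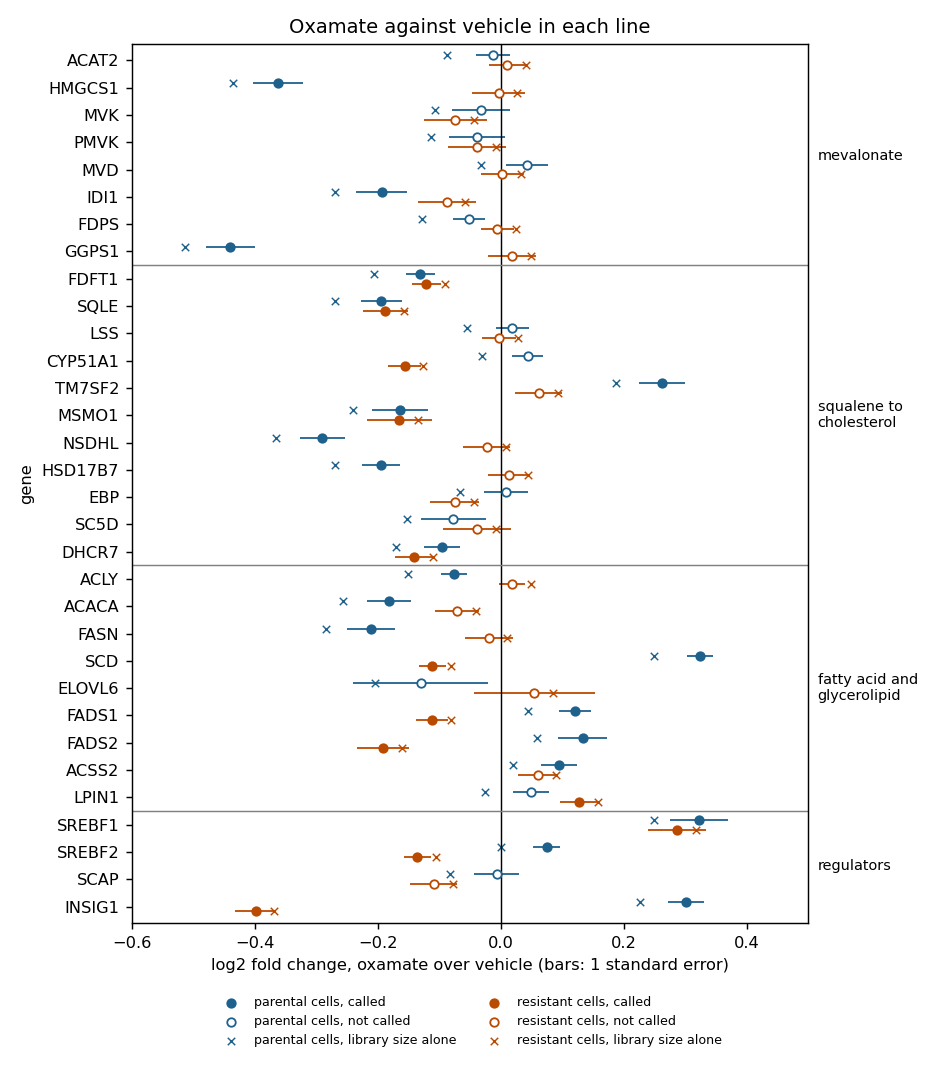
Log2 fold change of oxamate over vehicle for the 32 tested members in parental cells (blue) and resistant cells (orange), with bars of 1 standard error; filled points were called, open points were not, and crosses give the value with library size alone. INSIG1 lies at 0.30 in parental and -0.40 in resistant cells and SCD at 0.32 and -0.11, on either side of 0, while SREBF1 lies at 0.32 and 0.29.

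In resistant cells 2 of 32 members rose with oxamate and 10 fell, where 9.01% of all genes tested rose and 12.5% fell, and by edgeR 0 passed the rule of the study, which 2.50% of all genes did, although 13 had an unadjusted p under 0.05. Library size alone gave 2 higher and 9 lower, beside 12.0% and 8.09% of all genes. The members that rose were SREBF1 and LPIN1. SREBF1 was at 113, 111 and 120.1 CPM with vehicle and 139.6, 139 and 141 CPM with oxamate, a log2 fold change of 0.29 ± 0.047 (edgeR adjusted p = 7.5e-04). LPIN1 was at 78.5, 75.9 and 80.3 and 85.4, 85.0 and 85.9 CPM and changed by 0.13 ± 0.03 (edgeR adjusted p = 0.0088), a call lost without resistant vehicle replicate 2 (adjusted p = 0.055). INSIG1 fell by 0.40 ± 0.034 (edgeR adjusted p = 1.1e-06) and SREBF2, at 180.2, 182 and 176 CPM with vehicle and 163, 164 and 163 CPM with oxamate, fell by 0.14 ± 0.022 (edgeR adjusted p = 6.6e-04). Of the 8 mevalonate enzymes 0 were called by edgeR and 0 had an unadjusted p under 0.05, and their log2 fold changes lay between -0.09 and 0.02. Of the 11 enzymes from squalene to cholesterol 5 fell. SQLE was at 30.6, 28.5 and 29.2 CPM with vehicle and 25.7, 25.7 and 26.1 CPM with oxamate and changed by -0.19 ± 0.037 (edgeR adjusted p = 0.0025), and CYP51A1, at 111, 108 and 106 and 97.8, 98.5 and 95.3 CPM, changed by -0.16 ± 0.026 (edgeR adjusted p = 8.3e-04). In both genes every oxamate library was below every vehicle library. MSMO1 changed by -0.17 ± 0.053 (edgeR adjusted p = 0.038), a call that did not outlast library size alone, limma-voom or the loss of any of 4 single libraries, where the adjusted p ran from 0.055 to 0.17. DHCR7 and FDFT1 changed by -0.14 ± 0.031 and -0.12 ± 0.024. FADS1 was at 147, 149.5 and 144 CPM with vehicle and 137, 137 and 134 CPM with oxamate and changed by -0.11 ± 0.027 (edgeR adjusted p = 0.0082), and FADS2, at 31.6, 31.1 and 30.6 and 26.2, 28.3 and 27.2 CPM, by -0.19 ± 0.042 (edgeR adjusted p = 0.0054) and SCD by -0.11 ± 0.021 (edgeR adjusted p = 0.0023). The remaining fatty acid enzymes, FASN, ACACA, ACLY, ACSS2 and ELOVL6, were not called. The sum of the nuclear-retained RNAs in resistant cells averaged 743 CPM with vehicle and 1242 CPM with oxamate. Its part in these counts was not tested.

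The responses of both lines were compared directly, as the response of resistant cells minus that of parental cells. They differed for 13 of 32 members, 6 with a higher and 7 with a lower value in resistant cells, beside 22.7% and 21.4% of all genes tested, and by the rule of the study for 1 member, INSIG1, beside 8.48% of all genes. Library size alone gave 12 and 6, beside 34.6% and 12.0% of all genes, with no called member turning direction. INSIG1 had the largest difference, -0.70 ± 0.045 (edgeR adjusted p = 1.4e-08): it rose in parental cells and fell in resistant cells. SCD (-0.44 ± 0.03), FADS2 (-0.33 ± 0.058), FADS1 (-0.23 ± 0.037) and SREBF2 (-0.21 ± 0.031) had the same pattern, a called rise in one line and a called fall in the other, although the rises of FADS2, FADS1 and SREBF2 were not called with library size alone, while those of INSIG1 and SCD were. GGPS1 (0.46 ± 0.055), HMGCS1 (0.36 ± 0.059), NSDHL (0.27 ± 0.053), HSD17B7 (0.21 ± 0.045), FASN (0.19 ± 0.055) and ACLY (0.09 ± 0.029) fell in parental cells and were not called in resistant cells. TM7SF2 (-0.20 ± 0.054) rose in parental cells without a call in resistant cells, and CYP51A1 (-0.20 ± 0.036) fell in resistant cells without a call in parental cells. For SREBF1 the difference was -0.04 ± 0.067, with a 95% interval of -0.18 to 0.11, so a difference as large as that of SCD lay outside it. By role, 6 of 19 sterol enzymes, 5 of 9 fatty acid and glycerolipid enzymes and 2 of 4 regulators differed, with medians of 0.01, 0.08 and -0.16 and one of -0.01 for all genes. The comparisons within the lines share no library, whereas each shares a group with a comparison between the lines, so these values are not independent of those between the lines. The part of the nuclear-retained RNAs in these differences was not tested.

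**Figure D4:**
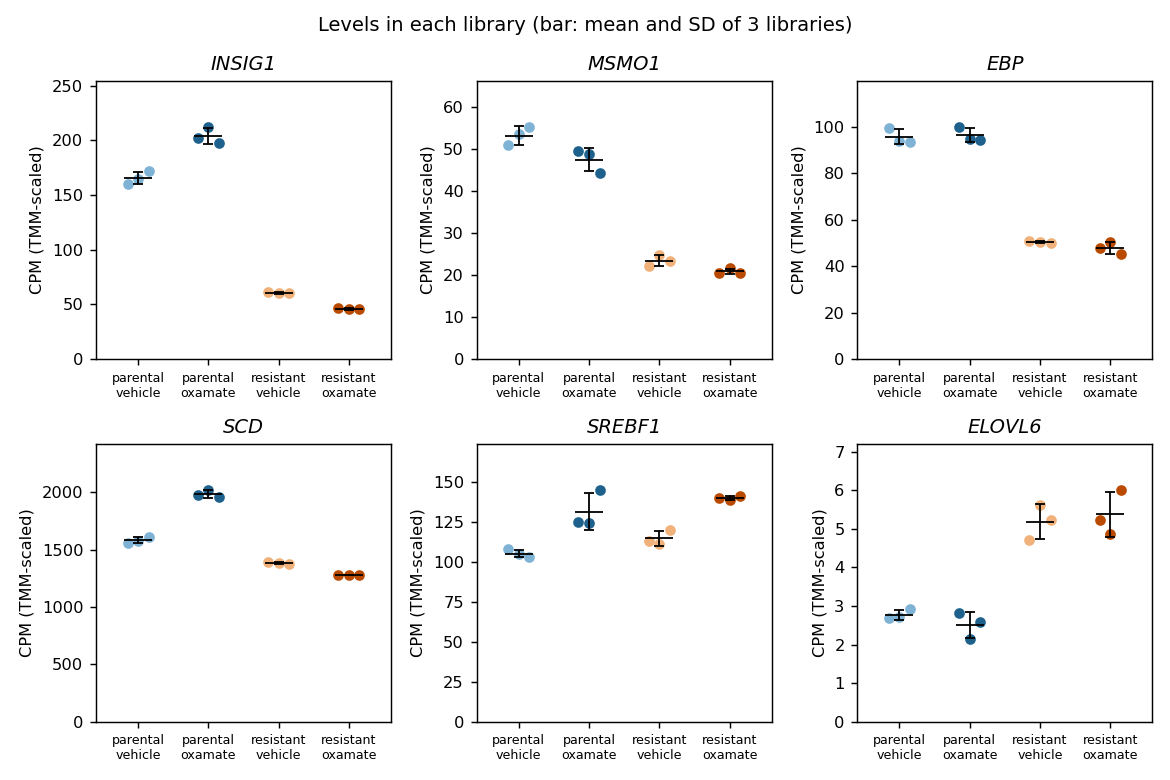
CPM of INSIG1, MSMO1, EBP, SCD, SREBF1 and ELOVL6 in each of the 12 libraries (points), with the mean and SD of the 3 libraries of each group (black bars) and axes from 0. INSIG1 averages 166, 204, 60.6 and 45.9 CPM from left to right, MSMO1 and EBP split by line, SREBF1 is higher with oxamate in both lines and ELOVL6 is higher in the resistant line.

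Other genes of the pathways were counted by role, from lists of pathway genes, to be read beside the shares of all genes given above: with library size alone, 58.6% of all genes were higher and 19.0% lower between the lines under vehicle, and 62.6% and 19.3% under oxamate. The 5 other sterol genes gave 1 higher and 4 lower of 5 tested under vehicle and 1 higher and 4 lower under oxamate between the lines (2 and 3, and 2 and 3, with library size alone), and 1 higher and 1 lower with oxamate in parental and 0 higher and 2 lower in resistant cells. Of these, LBR, a protein of the inner nuclear membrane that is also a sterol reductase, was the gene that was higher between the lines, by 0.37 ± 0.045 under vehicle and 1.04 ± 0.048 under oxamate. LBR was at 27.7, 30.6 and 31.5 CPM in parental vehicle and 19.0, 20.8 and 20.1 CPM in parental oxamate libraries, changed by -0.58 ± 0.048 with oxamate there (edgeR adjusted p = 5.3e-08), and its responses differed by 0.67 ± 0.066 (edgeR adjusted p = 1.0e-06). TMEM97, a sterol-regulated membrane protein, changed by -0.36 ± 0.027 and -0.56 ± 0.028 between the lines and by -0.11 ± 0.028 with oxamate in resistant cells. The 8 genes of SREBP processing gave 3 higher and 5 lower of 8 tested under vehicle and 3 higher and 4 lower under oxamate between the lines (6 and 2, and 6 and 2, with library size alone), and 1 higher and 3 lower with oxamate in parental and 0 higher and 2 lower in resistant cells. INSIG2, the relative of INSIG1, was at 27.3, 28.9 and 29.4 CPM in parental vehicle and 51.0, 50.5 and 45.7 CPM in parental oxamate libraries, and at 23.5, 22.7 and 21.8 and 23.7, 22.2 and 21.9 CPM in the resistant ones. It rose by 0.78 ± 0.046 with oxamate in parental cells (edgeR adjusted p = 1.3e-09), and the difference from the response of resistant cells was -0.79 ± 0.068 (edgeR adjusted p = 2.9e-07). With oxamate INSIG2 was thus lower in the resistant line, at a log2 fold change of -1.12 ± 0.048 (edgeR adjusted p = 3.6e-12). ERLIN1, which takes part in the degradation of INSIG proteins, changed by -0.36 ± 0.026 between the lines under vehicle, and MBTPS1, the first of the Golgi proteases, by -0.09 ± 0.029 with oxamate in resistant cells.

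The 7 genes of the LXR receptors and sterol efflux gave 5 higher and 2 lower of 7 tested under vehicle and 5 higher and 2 lower under oxamate between the lines (6 and 0, and 6 and 0, with library size alone), and 3 higher and 2 lower with oxamate in parental and 1 higher and 0 lower in resistant cells. ABCA1, the cholesterol exporter, was at 9.50, 10.3 and 10.9 CPM in parental and 22.3, 21.9 and 22.8 CPM in resistant vehicle libraries, and at 9.98, 11.3 and 12.4 and 24.6, 23.5 and 27.4 CPM under oxamate. It was thus higher where INSIG1 and MSMO1 were lower, by 1.13 ± 0.071 under vehicle (edgeR adjusted p = 7.1e-10) and 1.16 ± 0.073 under oxamate (edgeR adjusted p = 3.8e-10). In parental cells ABCA7 rose by 0.45 ± 0.061 with oxamate, in resistant cells MYLIP by 0.15 ± 0.047, and the responses differed for ABCG1 by -0.50 ± 0.12. The medians of this list were 0.70 and 0.37 between the lines. They were -0.42 and -0.37 for the sterol enzymes and 0.03 and 0.01 for all genes tested. The 12 genes of the prenyl branch gave 2 higher and 5 lower of 12 tested under vehicle and 4 higher and 5 lower under oxamate between the lines (6 and 2, and 9 and 1, with library size alone), and 1 higher and 7 lower with oxamate in parental and 0 higher and 2 lower in resistant cells. PGGT1B, a subunit of the geranylgeranyl transferase, changed by 1.15 ± 0.054 between the lines under oxamate and ICMT, which methylates prenylated proteins, by -0.50 ± 0.025 under vehicle, while RABGGTB, a Rab prenylation subunit, changed by -0.39 ± 0.032 and -0.18 ± 0.033 with oxamate in parental and resistant cells. The responses differed for PGGT1B by 0.50 ± 0.074. Of 32 other fatty acid and glycerolipid enzymes, 28 were tested, which gave 9 higher and 16 lower of 28 tested under vehicle and 8 higher and 16 lower under oxamate between the lines (15 and 8, and 18 and 8, with library size alone), and 9 higher and 11 lower with oxamate in parental and 1 higher and 7 lower in resistant cells. The acyl-CoA synthetase ACSL1 changed by -0.50 ± 0.039 with oxamate in parental cells, and its response differed by 0.51 ± 0.055. TECR and HACD1, which take part in the elongation cycle, changed by -0.78 ± 0.03 and -0.86 ± 0.036 between the lines, under oxamate and vehicle in turn, and the elongase ELOVL5 changed by -0.13 ± 0.025 with oxamate in resistant cells.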

How the data were processed

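RNA of MIAPaCa2 cells was sequenced in 12 libraries, 3 in each of 4 groups, and the groups were taken from the labels. Per the methods of the study, the authors captured polyadenylated RNA on oligo(dT) beads, used a NEBNext Ultra kit for the libraries, aligned paired-end reads to UCSC transcripts with Bowtie2 2.1.0 and deposited the expected counts that RSEM 1.2.15 estimated for each gene, with hg38 named in the submitters' processing notes. Another passage of those methods describes STAR and featureCounts, but 11.6% of the values are not whole numbers, as RSEM gives them. Whether the counting used strand is not given in the sources used here. After rounding, the expected counts went into edgeR 4.0.16 (R 4.3.3), using filterByExpr with its defaults (14582 of 26475 symbols), TMM, and the quasi-likelihood functions glmQLFit and glmQLFTest for contrasts of group means over all 12 libraries, tested on simulated data first. The standard error is the log2 fold change divided by the square root of F, and 95% intervals use the t distribution with the degrees of freedom of the fit. The 5 comparisons were oxamate against vehicle in each line, the lines under each treatment, and the difference of the oxamate responses. Floors of 3 counts cover counting error only. Replicates of a group differed by more than sampling noise. The members and the lists were chosen with earlier results of these data known. Library values were given, per comparison and role, for up to 3 called members with the largest change, and from each other list the called gene with the smallest p was named, except for 1 gene that is not reported here. The lists were mevalonate enzymes, squalene to cholesterol enzymes, fatty acid and glycerolipid enzymes, regulators and sterol transfer, other sterol genes, SREBP processing, LXR and sterol efflux, prenyl branch, other fatty acid and glycerolipid enzymes, nuclear-retained RNA, epithelial cell line and other cell types. Alternatives were scaling by RLE factors or by library size alone, no filter or a mean count of at least 25, limma-voom 3.58.1, DESeq2 1.42.0, a replicate block, fits on 6 libraries, a test against a 1.5-fold change, the rule of the study, and leaving out libraries.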

Additional observations from a re-analysis of the deposited data

Results flagged for a closer look

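The oxamate response differed between resistant and parental cells for 13 members, by edgeR's quasi-likelihood test of the difference itself at an adjusted p under 0.05. This was 40.6% of the 32 members tested, beside 44.2% of all genes tested, so the members were not called more often than other genes. The values are the log2 response of resistant cells minus that of parental cells. The members with a lower response in resistant cells were INSIG1 (-0.70), SCD (-0.44), FADS2 (-0.33), FADS1 (-0.23), SREBF2 (-0.21), TM7SF2 (-0.20) and CYP51A1 (-0.20). Those with a higher one were GGPS1 (0.46), HMGCS1 (0.36), NSDHL (0.27), HSD17B7 (0.21), FASN (0.19) and ACLY (0.094). With 3 libraries in a group, no test for single outlying libraries was run. The counts of called members without each single library are given below.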

How the results depend on the processing

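The counts of called members were 20 for oxamate in parental cells, 12 for oxamate in resistant cells, 28 between the lines under vehicle, 26 between them under oxamate and 13 for the difference of the responses. As shares of the 32 members tested these were 62.5%, 37.5%, 87.5%, 81.25% and 40.6%. In the same order, 58.7%, 21.5%, 75.7%, 80.3% and 44.2% of all genes tested were called. By the rule of the study in edgeR (p below 0.05 without adjustment and more than 1.5-fold) the counts of members were 0, 0, 9, 10 and 1. By edgeR's test against a 1.5-fold change they were 0, 0, 7, 8 and 0, as follows from asking for a size that few members reach. DESeq2 gave 19, 13, 27, 26 and 13, limma-voom 20, 11, 28, 26 and 13, RLE factors 20, 12, 27, 26 and 13, and library size alone 21, 11, 26, 25 and 18. Leaving out single libraries gave 19 to 21, 10 to 12, 25 to 28, 25 to 27 and 13 to 15, and leaving out replicate 3 of parental oxamate together with replicate 3 of resistant vehicle, chosen after seeing the data, gave 19, 13, 29, 27 and 16. Library size alone turned SREBF2 with oxamate in parental cells (-0.00034), SREBF2 between the lines under oxamate (0.0499) and SCAP between the lines under vehicle (0.11) and oxamate (0.12), and between the lines it also turned NSDHL, SCD, FADS2, ACSS2 and SREBF2 under vehicle and HMGCS1, TM7SF2, ACLY, FADS1 and ACSS2 under oxamate. With it, calls were lost for 4 members with oxamate in parental cells (FADS1, FADS2, ACSS2 and SREBF2), 1 in resistant cells (MSMO1), 5 between the lines under vehicle (NSDHL, FASN, SCD, FADS2 and ACSS2), 7 under oxamate (ACAT2, HMGCS1, MVK, FDPS, ACLY, ACSS2 and LPIN1) and 1 for the difference of the responses (TM7SF2). With the replicate number as a block (replicate block) the counts were 20, 14, 28, 27 and 14. Same-numbered libraries correlated from -0.0998 to 0.371 in their deviations from the group means, with 7 of 12 libraries closest to their own number. No label gives the numbers as pairs, and the main fit did not take them as pairs. Whether same-numbered libraries shared a batch was not tested. Parental libraries were deeper than resistant ones, and ELOVL6 and STARD4 were the members that depth limits most.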
